A study of Mus musculus with 6 samples.

Results

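The kinases that phosphorylate serine/arginine-rich (SR) splicing factors were followed in the mouse fibroblast line 3T3 after combined depletion of the SAFB proteins. The 8 genes were chosen as kinases of splicing factors and not by a rule on their values, although earlier results of these data were known. The genes are Clk1, Clk2, Clk3 and Clk4 of the CDC2-like kinase (CLK) family, Srpk1 and Srpk2 of the SR protein kinase (SRPK) family, Dyrk1a and Prpf4b. They are 8 of the 54532 genes listed in the deposited count files. All 8 passed the minimum of 10 reads summed over the 6 libraries that left 19452 genes for testing. Control cells (3 libraries) received a control siRNA. The SAFB KD cells (3 libraries) received siRNAs against Safb, Safb2 and Sltm together, so the effect of any single family member cannot be told apart here. Per the methods of the study, both groups were Flp-In 3T3 cells without a further treatment, transfected on consecutive days and collected after the second transfection. Poly(A)+ RNA was sequenced.

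SR proteins carry a domain of repeated arginine and serine residues, and phosphorylation of these serines governs where the proteins reside and how they take part in splicing. SRPKs act largely in the cytoplasm, where they prepare SR proteins for nuclear import by transportin-SR, whereas CLKs are nuclear and extend the phosphorylation that releases SR proteins from nuclear speckles. DYRK1A phosphorylates several splicing factors at speckles, PRPF4B acts on components of the U4/U6.U5 tri-snRNP during spliceosome assembly, and phosphatases of the PP1 and PP2A families remove the phosphates again. The SAFB proteins (scaffold attachment factor B, encoded by Safb, Safb2 and Sltm) bind RNA in the nucleus, with a known preference for purine-rich stretches.

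Because of that preference, the longest annotated coding sequence of each kinase was searched for GAAGAA, on the sense strand and with overlapping starts counted. The stretches below each hold 60 bases of coding sequence from 1 exon (GENCODE annotation of GRCm38), with the matches in capitals. Each was selected as the window with the most matches in its gene, the first where windows tied, so it is not typical sequence. They show the SRPK pair and the kinases with the largest rise (Clk3) and the largest fall (Prpf4b). The Srpk1 stretch lies in exon 10 of 16 on the minus strand of chr17:28600397-28600456 and holds 4 matches in 2 overlapping pairs. The Srpk2 stretch lies in exon 7 of 15 on the minus strand of chr5:23527957-23528016. The Clk3 stretch lies in exon 9 of 13 on the minus strand of chr9:57753341-57753400, and the Prpf4b stretch in exon 2 of 15 on the plus strand of chr13:34883574-34883633.
Srpk1: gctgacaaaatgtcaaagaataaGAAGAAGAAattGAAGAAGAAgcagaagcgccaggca
Srpk2: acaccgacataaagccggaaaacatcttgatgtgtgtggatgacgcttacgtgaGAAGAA
Clk3: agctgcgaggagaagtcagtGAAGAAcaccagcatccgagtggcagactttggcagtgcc
Prpf4b: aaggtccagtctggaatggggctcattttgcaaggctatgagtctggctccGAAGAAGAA

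Over the whole coding sequence, Prpf4b held 12 matches (3.97 per kb), Srpk1 held 5 (2.57 per kb) and Clk2 held 3 (2 per kb). Clk1, Clk3, Clk4 and Srpk2 held 1 match each, and Dyrk1a held 0. Among 13430 coding genes tested, 71.2% held at least 1 match and the median was 0.964 per kb. Prpf4b stood at the 94.4th percentile, Srpk1 at the 85.4th, Clk3 at the 34.3rd and Srpk2 at the 33.3rd. The matches are a description of the letters and carry no measurement of binding.

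Library depth ranged from 33323307 to 53441129 counts, and the 8 kinases had between 1438 and 8369 reads per library. Levels are given as CPM, counts scaled to a common library size with TMM factors. Control 3 lay apart from the other controls on the second principal component of log2 CPM. The siRNA targets were lower in every SAFB KD library. Mean levels went from 93.7 to 46.6 CPM for Safb, from 46.9 to 30.0 CPM for Safb2 and from 100.2 to 61.6 CPM for Sltm, so the transcripts were reduced but still present. All 7 fibroblast markers examined were detected at 36.7 CPM or more in every library. Their summed level was 9426 to 10396 CPM in control and 7755 to 7880 CPM in SAFB KD, with 6 of the 7 called lower and Pdgfrb lower beyond 2-fold, and the part of this shift in the results below was not tested. Of 10 markers of epithelial, blood, endothelial and neural cells, 6 were below the read minimum, Epcam, Krt5 and Rbfox3 had no read, and the summed level was 11.8 to 13.2 CPM in control and 12.9 to 13.4 CPM in SAFB KD. Of the 4 that were tested, the endothelial marker Pecam1 was called higher (0.862 ± 0.253 to 1.46 ± 0.439 CPM, log2 fold change 0.72, edgeR adjusted p = 0.0187), with groups that overlapped. Cdh5, another endothelial marker, was at 7.19 ± 0.0620 CPM in control and at 8.21 ± 0.0813 CPM in SAFB KD, higher in every SAFB KD library but not called (adjusted p = 0.0816), and the part of these levels in the results was not tested. In bulk RNA, fewer cells with a transcript and less of it per cell cannot be told apart.

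Of the 8 kinases, 4 rose (Clk1, Clk3, Clk4 and Srpk1), 2 fell (Srpk2 and Prpf4b) and 2 (Clk2 and Dyrk1a) did not pass an adjusted p of 0.05 in the edgeR quasi-likelihood test with Benjamini-Hochberg adjustment over all genes. The background was high: by the same test 41.5% of all genes tested were called, 21.4% higher and 20.1% lower in SAFB KD. Among the 4902 genes with a mean level at least that of the lowest kinase, 71.1% were called, and the 75% of the kinases that were called was close to that share. The groups did not overlap for 4 kinases that were higher and 3 that were lower, beside 49.0% of all genes (25.3% higher and 23.7% lower). Among the 4902 genes of at least the lowest kinase's level, 2113 were higher and 1572 lower without overlap. No kinase passed a test for a change beyond 2-fold (glmTreat of edgeR, with 0 at an unadjusted p under 0.05, and 0 by DESeq2 and limma), a threshold that 1.22% of all genes passed. The median log2 fold change of the kinases was 0.11, against 0.01 over all genes. Their median absolute log2 fold change was 0.19, compared with 0.27 over all genes and 0.16 over those of at least the lowest kinase's level.

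**Figure D1:**
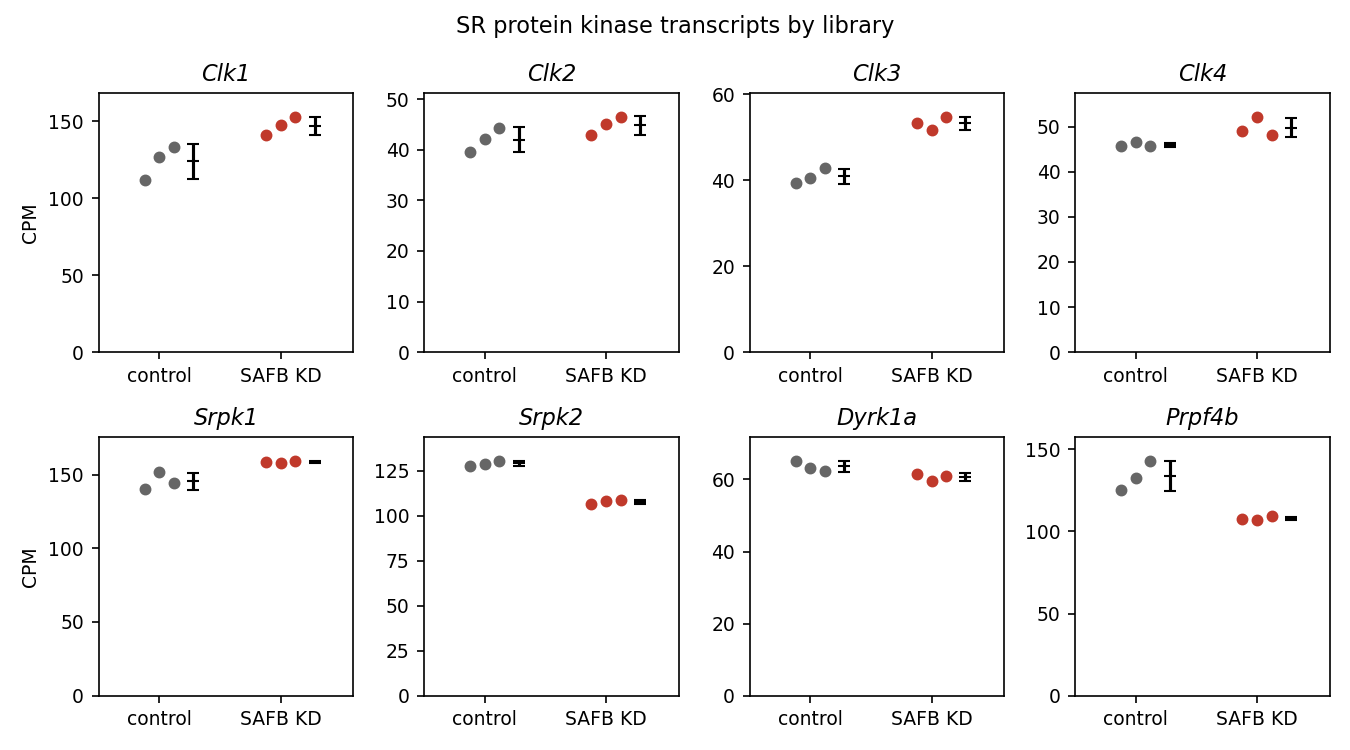
TMM-scaled counts (CPM) of each of the 8 kinases (vertical axes, CPM, from 0) in the 3 control (grey) and 3 SAFB KD (red) libraries, with the mean and SD of each group as black bars. Clk1, Clk3, Clk4 and Srpk1 are higher and Srpk2, Dyrk1a and Prpf4b lower in every SAFB KD library than in any control library, whereas the groups overlap for Clk2.

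Within the CLK family, Clk3 showed the largest change. Clk3, on the minus strand of chromosome 9 (57750624 to 57765860, ENSMUSG00000032316), was measured at 39.4, 40.6 and 42.8 CPM in control and at 53.4, 51.7 and 54.7 CPM in SAFB KD. Every SAFB KD library stood well above every control library. The mean rose from 40.9 ± 1.74 to 53.3 ± 1.49 CPM (SD, n = 3), 1.30-fold higher by edgeR (log2 fold change 0.38, SE 0.044, 95% interval 0.29 to 0.47, adjusted p = 1.98e-09). CLK3 is a nuclear dual-specificity kinase that phosphorylates SR proteins.

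Clk1 encodes the founding member of the family, a nuclear kinase that acts on SRSF1 and other SR proteins. Clk1 (ENSMUSG00000026034, chromosome 1, 58410189 to 58424066, minus strand) was measured at 111.7, 126.7 and 133.5 CPM in control and at 140.9, 147.8 and 152.8 CPM in SAFB KD. The groups did not overlap, but the controls were spread more widely than for the other kinases of the family. The mean went from 124 ± 11.2 to 147 ± 5.99 CPM, 1.19-fold higher by edgeR (log2 fold change 0.25, SE 0.041, 95% interval 0.17 to 0.33, adjusted p = 3.03e-06). Without control 1, the lowest control, the log2 fold change was 0.17 and the call stood. The call also stood with DESeq2, at a larger adjusted p of 0.00698.

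Clk4, the closest relative of Clk1, had the smallest called change of the 8. Clk4 (ENSMUSG00000020385, chromosome 11, 51261730 to 51281766, plus strand) was measured at 45.7, 46.5 and 45.8 CPM in control and at 48.9, 52.1 and 48.2 CPM in SAFB KD. The groups lay close to each other without overlapping. The mean went from 46.0 ± 0.439 to 49.7 ± 2.11 CPM, 1.08-fold higher by edgeR (log2 fold change 0.11, SE 0.043, adjusted p = 0.0345). This call was lost with DESeq2 (adjusted p = 0.0826), with RLE size factors (0.0541), with total counts as the only scaling (0.201), and without any single control (0.0883 without control 1, 0.100 without control 2 and 0.106 without control 3) or without SAFB KD 2 (0.237).

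Clk2 (ENSMUSG00000068917, chromosome 3, 89164795 to 89176921, plus strand) encodes a nuclear kinase that also acts in metabolic signalling. It was measured at 39.6, 42.1 and 44.4 CPM in control and at 42.9, 45.2 and 46.5 CPM in SAFB KD, and the groups overlapped. The log2 fold change was 0.10 (SE 0.047, 95% interval 0.003 to 0.19) with an edgeR adjusted p of 0.0943. Single libraries moved this value: it was 0.12 without control 3 (adjusted p = 0.0387) and 0.13 without SAFB KD 1 (0.0477), but 0.05 without control 1 (0.465) and 0.07 without SAFB KD 3 (0.358). With total counts as the only scaling it was 0.06 (0.353).

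The SRPK pair moved in opposite directions. Srpk1 (ENSMUSG00000004865, chromosome 17, 28587648 to 28622709, minus strand), a well-studied kinase of SRSF1, was measured at 140.3, 151.5 and 144.5 CPM in control and at 158.3, 157.7 and 159.6 CPM in SAFB KD. The SAFB KD libraries were nearly identical and all lay above the highest control. Its mean rose from 145 ± 5.66 to 159 ± 0.956 CPM, 1.09-fold by edgeR (log2 fold change 0.12, SE 0.033, 95% interval 0.06 to 0.19, adjusted p = 0.00171).

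Srpk2 (ENSMUSG00000062604, chromosome 5, 23503264 to 23684617, minus strand) encodes the second SRPK, which acts on SR proteins and on tri-snRNP components. It was measured at 127.7, 128.7 and 130.6 CPM in control and at 106.3, 108.0 and 108.7 CPM in SAFB KD. Spread within both groups was small beside the gap between them. The mean fell from 129.0 ± 1.5 to 108 ± 1.21 CPM, 1.20-fold lower by edgeR (log2 fold change -0.26, SE 0.032, adjusted p = 1.13e-08).

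The log2 ratio of Srpk1 to Srpk2 CPM was 0.14, 0.23 and 0.15 in control and 0.57, 0.55 and 0.55 in SAFB KD. The ratio was higher in every SAFB KD library, by 0.39 on average, with an exact 2-sided permutation p of 0.1, the smallest that 3 against 3 libraries allow. Both genes had groups without overlap, in opposite directions, so this separation and its p were fixed by their values. Per exon length, Srpk1 made up 55.9 ± 0.934% of the summed SRPK level in control and 62.3 ± 0.234% in SAFB KD.

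Prpf4b showed the largest fall. Prpf4b (ENSMUSG00000021413, chromosome 13, 34875302 to 34906064, plus strand) encodes a CLK-related kinase that is bound to the spliceosome. It was measured at 125.3, 132.7 and 143.2 CPM in control and at 107.8, 107.2 and 109.2 CPM in SAFB KD. The controls were spread over a wide range, all above the tightly grouped SAFB KD libraries. The mean fell from 134 ± 8.96 to 108 ± 1.02 CPM, 1.24-fold lower by edgeR (log2 fold change -0.31, SE 0.037, adjusted p = 5.50e-09). Without control 3, the highest control, the log2 fold change was -0.27 and the call stood.

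Dyrk1a (ENSMUSG00000022897, chromosome 16, 94570010 to 94695517, plus strand) encodes a dosage-sensitive kinase with many substrates beyond splicing. It was measured at 65.3, 63.3 and 62.4 CPM in control and at 61.6, 59.6 and 60.9 CPM in SAFB KD. Each SAFB KD library was below each control, by a narrow margin. The log2 fold change was -0.07 (SE 0.039, 95% interval -0.15 to 0.01) with an edgeR adjusted p of 0.154. With total counts as the only scaling it was -0.11 with an adjusted p of 0.0235, and the count of called kinases was then 3 higher and 3 lower. With RLE size factors and with DESeq2 it was 3 higher and 2 lower.

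**Figure D2:**
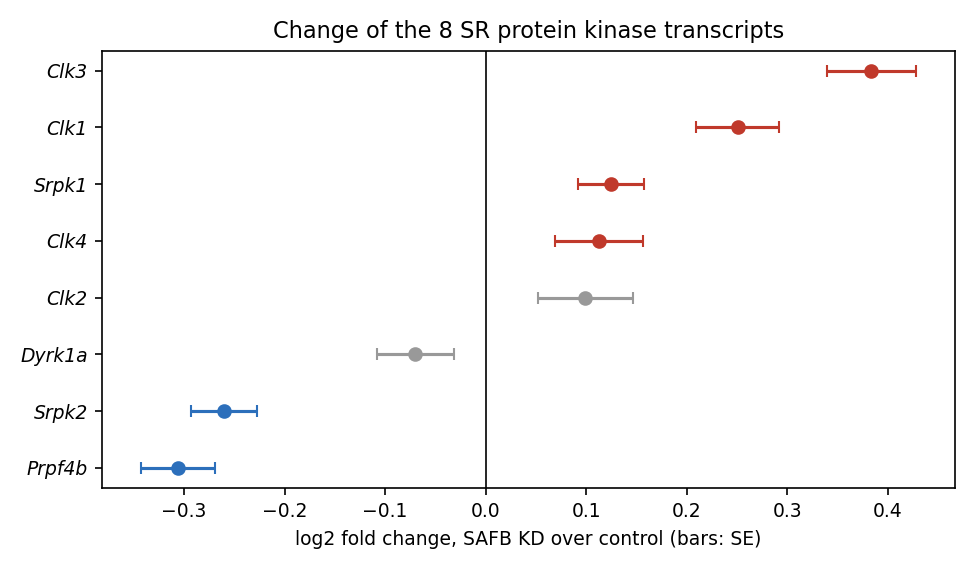
Log2 fold change of SAFB KD over control (horizontal axis) for each kinase, with its SE as bars, from the edgeR fit on 3 libraries per group. Red and blue points mark called rises and falls, and grey points the kinases that were not called. Values run from -0.31 for Prpf4b to 0.38 for Clk3.

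Levels were compared between genes only after division by the annotated exon length, as RPKM (CPM per kb of merged exons). Merged exons include the retained introns of annotated transcripts, to an extent that differs between genes. The order of the kinases, the family sums and the family shares therefore depend on the annotation. In control, Prpf4b (15.9 RPKM, range 14.9 to 16.99) and Clk1 (15.2 RPKM, range 13.7 to 16.4) were the highest, and their ranges overlapped. Srpk1 (11.7 RPKM) and Srpk2 (9.28 RPKM) followed, each apart from its neighbours. Clk4 and Clk2 (both 7.93 RPKM) and Dyrk1a (7.71 RPKM) could not be ordered beyond their spread, and Clk3 was lowest at 4.84 RPKM. In SAFB KD, Clk1 stood alone at the top at 18.1 RPKM, and Prpf4b and Srpk1 shared the next place at 12.8 RPKM each. Clk4 (8.58 RPKM) and Clk2 (8.46 RPKM) overlapped and now lay above Srpk2 (7.74 RPKM), followed by Dyrk1a (7.36 RPKM). Clk3 remained the lowest at 6.31 RPKM.

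**Figure D3:**
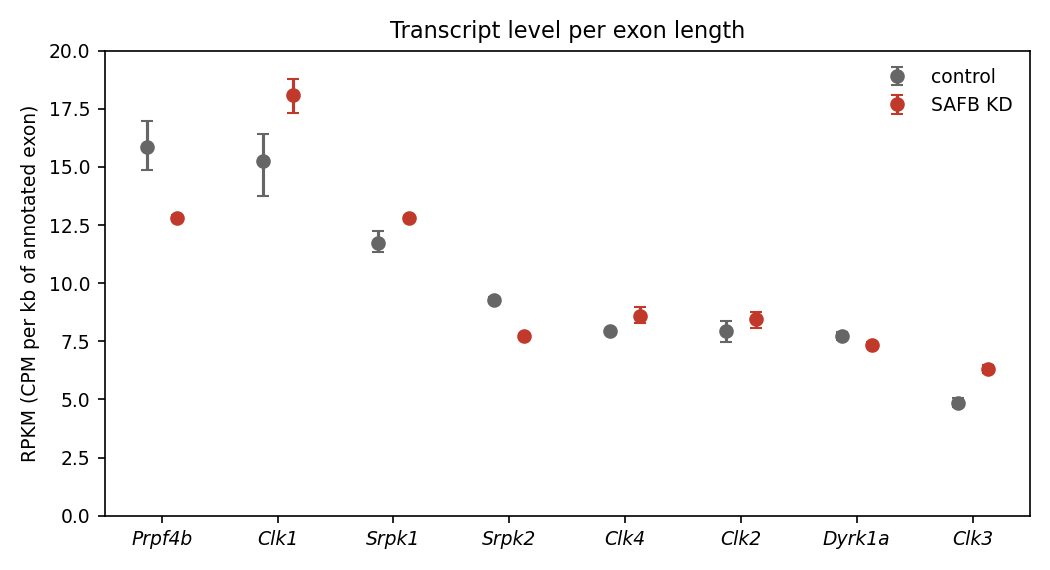
Mean level per exon length (RPKM, vertical axis) of each kinase in control (grey) and SAFB KD (red), with bars from the lowest to the highest of 3 libraries and kinases ordered by control level. Prpf4b and Clk1 overlap in control at 15.9 and 15.2 RPKM and separate in SAFB KD at 12.8 and 18.1 RPKM.

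Summed over each family, the per-length level of the CLKs went from 35.95 ± 2.03 to 41.4 ± 1.13 RPKM (ratio 1.15). The summed SRPK level was 21.0 ± 0.491 RPKM in control and 20.6 ± 0.142 RPKM in SAFB KD (ratio 0.977). Dyrk1a and Prpf4b together went from 23.6 ± 0.893 to 20.2 ± 0.212 RPKM (ratio 0.856), and the sum of all 8 was 80.6 ± 3.22 in control and 82.2 ± 1.26 RPKM in SAFB KD. Within the CLK family the share of Clk3 was higher in every SAFB KD library (13.5 ± 0.296% to 15.2 ± 0.549%) and that of Clk2 lower (22.1 ± 0.179% to 20.4 ± 0.292%). Shares of Clk1 (42.4 ± 1.46% and 43.7 ± 0.651%) and Clk4 (22.1 ± 1.23% and 20.7 ± 0.981%) overlapped between the groups.

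**Figure D4:**
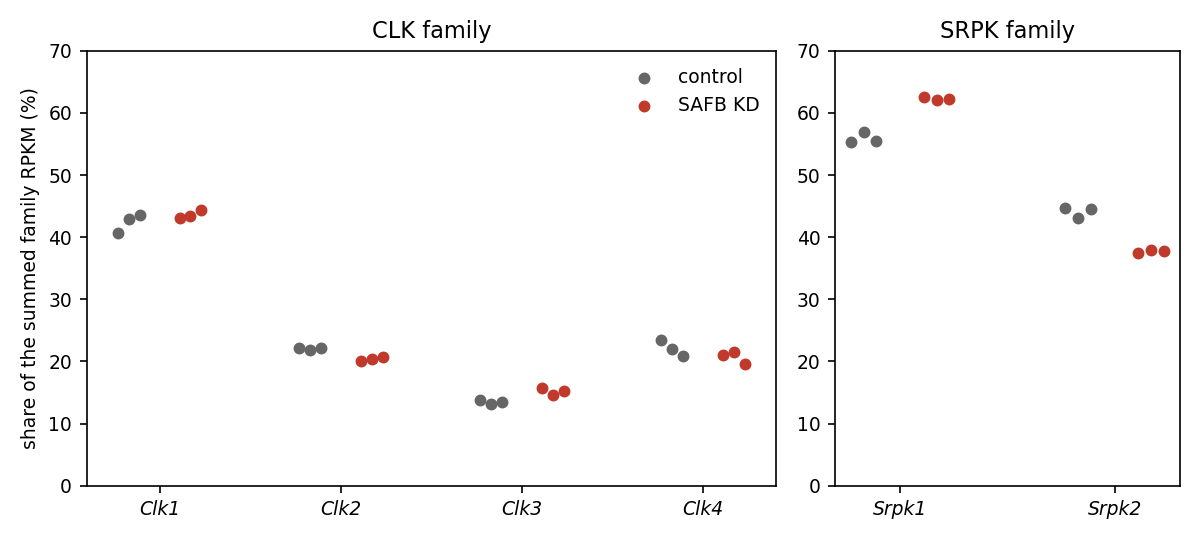
Share of each kinase in the summed per-length level of its family (percent of RPKM, vertical axis) in each control (grey) and SAFB KD (red) library, for the CLK family (left) and the SRPK family (right). The largest shift is that of Srpk1, from 55.9% to 62.3% of the SRPK level, and the share of Srpk2 is the remainder.

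Gene structure bears on what these counts contain. GENCODE annotates 13 transcripts for Clk1, of which 1 is protein-coding and 7 retain an intron, and 14 for Clk4, of which 4 are protein-coding and 7 retain an intron. Srpk1 has 6 annotated intron-retaining transcripts, Clk2 and Clk3 have 4 each, Srpk2 has 3, Prpf4b has 2 and Dyrk1a has 1. CLK transcripts are known to be stored in the nucleus with introns retained, and a count per gene adds such forms to the coding ones, which were not separated here. Exons, including those of the intron-retaining forms, cover 58.6% of the span of Clk1, 55.5% of Clk3 and 43.7% of Clk2, compared with 7.67% of Srpk2 and 6.57% of Dyrk1a. Spans run from 12127 bases for Clk2 to 181354 bases for Srpk2.

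Among the kinases, Clk3 and Srpk2 share exonic bases with a well-expressed gene on the opposite strand. Edc3, an mRNA decapping factor gene, shares 1284 exonic bases with Clk3 and went from 33.3 ± 2.41 to 26.7 ± 0.816 CPM (log2 fold change -0.32, SE 0.055, edgeR adjusted p = 4.98e-06), a fall where Clk3 rose. Kmt2e, a chromatin regulator gene, shares 972 exonic bases with Srpk2 and went from 183 ± 5.72 to 146 ± 2.64 CPM (log2 fold change -0.33, SE 0.032, edgeR adjusted p = 3.71e-11), a fall alongside that of Srpk2. The methods of the study describe strand-specific counting, and the part of shared bases in either value was not tested. The other genes that overlap a kinase (Gm25082 and BC049762 at Clk4, Gm24009 and Gm43566 at Srpk2, Gm15971 at Dyrk1a, Gm36839 at Prpf4b) held at most 102 reads over all 6 libraries, and none was called. Coding sequence of at least 80% identity over 100 or more bases was found in Gm8876 for Srpk1 (92.3% over 1127 bases), Gm11251 for Prpf4b (81.7% over 2118 bases) and AC157214.1 for Clk3 (81.5% over 1507 bases), all with 0 reads, and between Clk4 and Clk1 (81.1% over 513 bases). Clk3 also matched Edc3 on the opposite strand (100% over 176 bases).

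Likeness of pattern was measured as the root mean square difference of centred log2 CPM over the 6 libraries, among 11035 protein-coding genes that averaged 1 CPM or more. The genes closest to Clk3 were Cd151 (0.0172), Sinhcaf (0.0184) and Mlx (0.0210), with log2 fold changes of 0.40, 0.40 and 0.38. The genes closest to Prpf4b were Zfp260 (0.0151), Zfp846 (0.0159) and Zfp976 (0.0181), with log2 fold changes of -0.29, -0.32 and -0.30. The measure spans both groups, so the similar fold changes of such close genes follow from the selection. Among the kinases themselves, Clk4 and Srpk1 (0.0470) and Srpk2 and Prpf4b (0.0519) were the closest pairs, and Clk3 and Prpf4b (0.344) the most distant.

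Of 12 tested genes for SR proteins, the classical substrates of SRPKs and CLKs, 10 fell and 0 rose (median log2 fold change -0.18). For this and the lists that follow, the background is that 41.5% of all genes were called, 21.4% higher and 20.1% lower, and that of the 4902 genes of at least the lowest kinase's level 2009 were called higher and 1475 lower. The called SR protein genes were 83.3% of those tested, while Srsf7 (0.04) and Srsf9 (-0.03) were not called and Srsf12 had no read. Srsf6, which encodes an SR protein that binds splicing enhancers, was measured at 286.4, 286.4 and 295.5 CPM in control and at 219.7, 201.0 and 206.8 CPM in SAFB KD (log2 fold change -0.47, SE 0.032, edgeR adjusted p = 1.94e-15). Srsf5 followed at -0.45, Srsf2 at -0.28 and Srsf1 at -0.24. All 4 were lower in every SAFB KD library than in any control.

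SR-related proteins have arginine/serine-rich stretches but other functions in RNA processing. Of their 28 genes, 14 fell, 4 rose and 10 were not called, with a median log2 fold change of -0.11. The share called, 64.3%, was above that of all genes and below the 71.1% of genes of at least the lowest kinase's level. Rsrc1, which encodes an arginine/serine-rich coiled-coil protein, fell from 74.7 ± 1.23 to 43.8 ± 1.19 CPM (log2 fold change -0.77, SE 0.040, edgeR adjusted p = 3.58e-19), followed by Srrm2 (-0.49), Nktr (-0.37) and Acin1 (-0.36). The genes that rose were Rnps1 (0.33), Cactin (0.24), Rsrc2 (0.21) and Rbm39 (0.10).

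Of 8 genes for catalytic subunits and partners of the phosphatases that can remove phosphates from splicing factors, 7 (87.5%) rose and 0 fell (median log2 fold change 0.18), and Ppp1r10 was not called (0.00). Ppp1cb, a PP1 catalytic subunit gene, rose from 434 ± 5.52 to 525 ± 9.43 CPM, 1.21-fold by edgeR (log2 fold change 0.28, SE 0.029, adjusted p = 1.80e-10). Ppp1r8, which encodes a nuclear PP1 partner, rose by 0.27, Ppp2cb by 0.25 and Ppm1g by 0.19 on the log2 scale.

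Among 13 genes for import factors and partners of the SRPKs, 8 rose and 4 fell, 92.3% in all (median log2 fold change 0.14). Hsp90aa1, a chaperone gene of the machinery that holds SRPK1 in the cytoplasm, was measured at 848, 903 and 965 CPM in control and at 1448, 1351 and 1449 CPM in SAFB KD (1.56-fold higher by edgeR, log2 fold change 0.65, SE 0.034, adjusted p = 5.65e-19). Its co-chaperone gene Ahsa1 rose by 0.32, whereas Hsp90ab1 and Hspa8 fell by 0.09 and 0.18 on the log2 scale. Tnpo3, which encodes transportin-SR, rose from 193 ± 3.40 to 223 ± 0.932 CPM (log2 fold change 0.21, edgeR adjusted p = 2.25e-07), Tnpo2 rose by 0.39 and Tnpo1 fell by 0.23.

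Of 12 tested genes for related kinases and Top1, which encodes a topoisomerase with SR protein kinase activity, 2 rose and 5 fell (median log2 fold change -0.05), and Srpk3 had no read. The 58.3% called lay between the shares of all genes and of genes of at least the lowest kinase's level. Hipk4 was measured at 1.41, 1.5 and 1.64 CPM in control and at 0.284, 0.348 and 0.362 CPM in SAFB KD, 4.47-fold lower by edgeR (log2 fold change -2.16, SE 0.28, adjusted p = 2.74e-08). It was the only gene of all the kinase and pathway lists to pass the test beyond 2-fold, from 55 to 61 reads per control library and 10 to 19 per SAFB KD library. Dyrk3, which encodes a kinase that dissolves condensates such as speckles in mitosis, rose from 9.30 ± 0.641 to 13.3 ± 0.923 CPM (log2 fold change 0.52, SE 0.078, edgeR adjusted p = 5.29e-07). Hipk2 rose by 0.23 and Hipk3 fell by 0.25 on the log2 scale.

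The tri-snRNP proteins include substrates of PRPF4B, and Dcaf7 encodes a DYRK1A partner. Their list also holds Sf3b1, which encodes a protein of the U2 snRNP and not of the tri-snRNP. Of these 11 genes, 5 rose and 0 fell (median log2 fold change 0.05), or 4 rose and 2 fell with total counts as the only scaling, and 5 rose and 1 fell without control 3. The 45.5% called was close to the share of all genes and below the 71.1% of genes of at least the lowest kinase's level. Prpf4, the gene of a U4/U6 protein, rose from 61.3 ± 1.13 to 72.9 ± 1.82 CPM (log2 fold change 0.25, SE 0.038, edgeR adjusted p = 5.92e-07), the opposite direction to Prpf4b. Snrnp27 rose by 0.23, Prpf3 by 0.20 and Snrnp200 by 0.15 on the log2 scale.

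**Figure D5:**
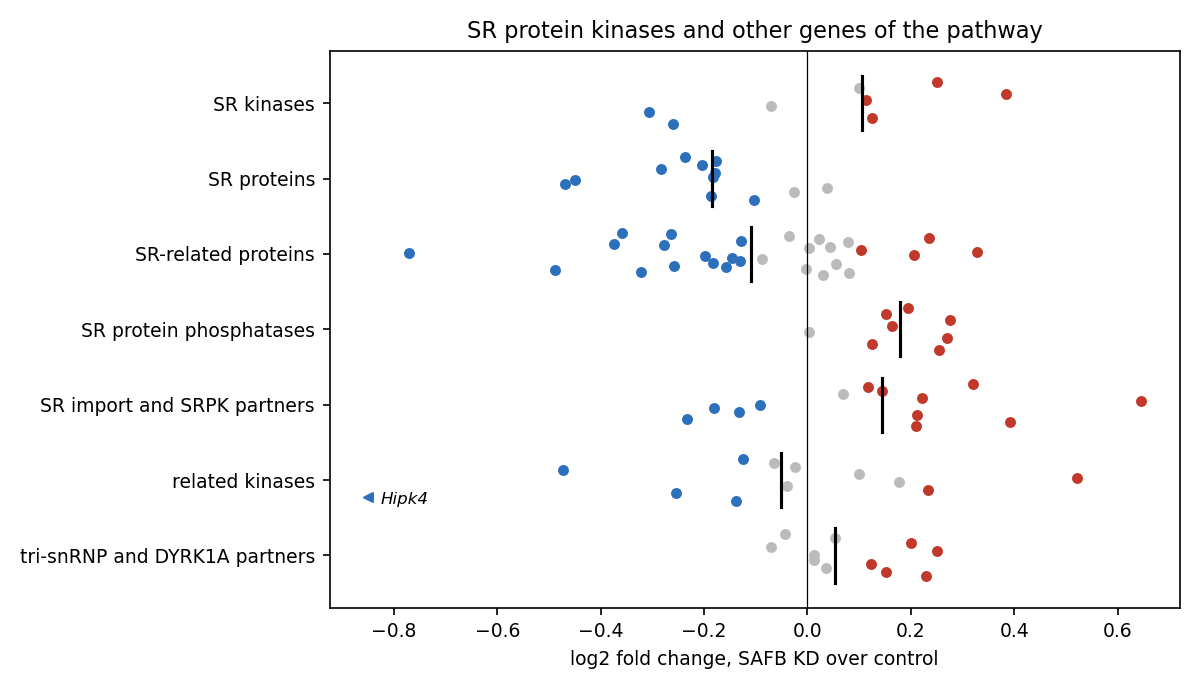
Log2 fold change of SAFB KD over control (horizontal axis) for every tested gene of the kinase list and of 6 other pathway lists (vertical axis), with red and blue points for called rises and falls, grey points for genes not called and a black line at each median. Hipk4 is drawn at the edge of the axis, its value being -2.16. Medians run from -0.18 for SR proteins to 0.18 for the phosphatases, with the 8 kinases at 0.11.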

How the data were processed

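The deposited values were counts, integers per gene in a separate file for each library, which the authors obtained by aligning stranded poly(A)+ reads to GRCm38 with STAR 2.7.9a. The submitters' processing notes also name mm10 and deepTools 3.5.1. That the single column of each file held reverse-stranded gene counts is inferred from the methods of the study. Sample titles gave the group and replicate of each library, and the submitters describe biological replicates. No replicate pair looked like 1 library deposited again (chi-square over degrees of freedom from 4.18 to 21.8).

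Identifiers were matched to GENCODE vM21 of GRCm38 (54495 matched, 37 did not). The methods of the study name another GENCODE release for the mouse gene models. Exon lengths, overlaps and transcript types given here are those of vM21 and may differ from the models used for counting. Of the genes listed, 35080 fell below a sum of 10 reads and were left out. TMM scaling preceded a 2-sided edgeR 4.0.16 quasi-likelihood comparison (R 4.3.3) without a covariate, with Benjamini-Hochberg adjustment over 19452 genes and an adjusted p under 0.05 called. Changes beyond 2-fold used glmTreat at a log2 threshold of 1. The SE is the log2 fold change over the square root of its F statistic, and the biological coefficient of variation was 3.49%. RPKM is TMM-scaled CPM per kb of merged exons. Likeness used log2 CPM with a prior count of 2, near copies were found with BLAST+ 2.17.0, and plots were made in Python 3.11.15 with matplotlib 3.10.9. Alternatives were RLE size factors, total counts as the only scaling, no filter, filterByExpr, DESeq2 1.42.0, limma-voom (limma 3.58.1), a replicate block, and each library left out in turn.

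The kinases, the other lists and the tests were chosen with earlier results of these data known. Named genes were the 8 kinases, the siRNA targets, genes overlapping a kinase, up to 4 members of each other list with the smallest adjusted p, and the 3 genes most like each of the 2 kinases with the largest change. Tnpo3, Pdgfrb, Pecam1, Cdh5, Hsp90ab1, Hspa8, Ppp1r10, Srsf7, Srsf9, Rnps1, Cactin, Rsrc2 and Rbm39 fall outside this rule and were named after their values were seen. The remaining list members enter only the counts and medians. Log2 fold changes were not recomputed under the alternatives for genes overlapping a kinase, genes most like a kinase or genes named after their values were seen.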

Additional observations from a re-analysis of the deposited data

How the results depend on the processing

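Under 13 alternatives, all 130 recomputed counts of called genes stayed within 1.5 times the reported ones. The 8 kinases gave 5 to 7 calls when 1 library was left out. Over all 13 alternatives, the number of called genes of all kinds ran from 7183 to 8117. Log2 fold changes were recomputed for 35 genes: the 8 kinases, the siRNA targets and up to 4 genes of each other pathway list. Of 455 values, 445 stood on the same side of the threshold and 0 changed sign. A call was lost in 7 (all Clk4) and gained in 3 (Clk2 without control 3 or SAFB KD 1, and Dyrk1a with total counts as the only scaling). All these changes fell among the kinases: Clk4 kept its call in 6 of 13 alternatives, while Clk2 stayed not called in 11 and Dyrk1a in 12. The cause was not tested. Genes of the other lists had been taken for their small adjusted p in the main fit, so their calls were likely to stand. Scaling moved the median log2 fold change of all genes to -0.03 at most. Same-numbered libraries did not deviate together over all genes tested (correlations -0.0166 to -0.00514). Genes with few reads weigh as much as others in this measure, so it cannot decide whether the numbers pair the samples. With the replicate number as a block, 6 kinases and 8117 genes were called. For the kinases that were not called, the 95% intervals leave room for a log2 rise of 0.19 (Clk2) and a log2 change of -0.15 (Dyrk1a).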
